A study of Mus musculus with 24 samples.

Results

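The genes described here are the 2 cardiac natriuretic peptide genes Nppa and Nppb and 8 cardiomyocyte genes, Myh6, Myh7, Myl7, Myl4, Tnnt2, Tnni3, Actc1 and Sln, that RNA sequencing detected in whole lungs of newborn mice. They are 10 of the 36109 genes listed for the lung, and all 10 were among the 16819 genes with enough counts to be tested. They were taken by name, and the set was chosen by the lung counts of Nppb, which were seen in hyperoxia-exposed lungs. Its hyperoxia contrast is therefore a description with no test, while the other 9 genes, the genotype contrasts and the retina were tested. Lungs came from homozygous global GSDMD-KO mice (C57/B6), which lack gasdermin D through a CRISPR/Cas9-made deletion inside an exon of Gsdmd, and from their WT littermates. At postnatal day 15 lungs were collected from 4 groups of 3 mice, WT-RA and KO-RA after room air (21% O2) and WT-O2 and KO-O2 after hyperoxia (85% O2), both given from postnatal day 1 to 14. Retinas of 3 mice per group were collected at postnatal day 18, either after room air throughout or after 75% O2 from postnatal day 7 to 12 followed by room air. RNA was extracted from the whole organ, so that fewer cells of a type and less RNA per cell cannot be told apart.

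Natriuretic peptides are hormones that heart muscle cells release when their walls are stretched. ANP, made from Nppa, is the atrial peptide that is stored and released at once, and BNP, made from Nppb, is known as a peptide whose transcription is quickly induced under load. Both bind the receptor NPR-A (Npr1), which makes cyclic GMP, relaxes vessels and promotes sodium excretion, and NPR-C (Npr3) clears them. In mice a sleeve of atrial-type cardiomyocytes continues from the left atrium along the pulmonary veins deep into the lung, so that whole lung RNA holds sarcomere transcripts of heart muscle.

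The totals assigned to genes were 28763661 to 29604254 counts per lung and 24863257 to 29093035 per retina, and levels are given in CPM, the share of that total scaled to 1000000 counts. Gsdmd itself was counted at 40.4 to 43.2 CPM in WT-RA, 32.1 to 36.2 in WT-O2, 23.2 to 25.2 in KO-RA and 11.4 to 16.7 in KO-O2 lungs. Y-linked transcripts were present in 0 WT-RA lungs, 1 WT-O2 lung, 2 KO-RA lungs and 3 KO-O2 lungs of 3 each, and sex therefore differed along with the groups. The 9 liver genes of a marker list summed to 179 CPM in KO-O2 mouse 1 and to between 1.55 and 3.48 CPM in each of the other lungs. Among the named genes, values without that lung are given for Nppb, Sln and Ckmt2.

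Nppb and Nppa are neighbors on chromosome 4 of GRCm38, Nppb at chr4:147985788-147987205 and Nppa at chr4:148000722-148002079, both on the plus strand. Their promoters are shown because the genes share a locus and had different counts in hyperoxia. The lung cells that held their RNA were not identified, and no link between motifs and counts was tested. The 250 bases before each RefSeq transcription start (GRCm38.p6, plus strand) were searched on both strands for 4 motifs. GATAA is the core that GATA factors bind in many cardiac genes. The core bound by TEAD factors was written CATTCC. For AP-1 the element TGACTCA was used. The TATA box was written TATAAA. RefSeq starts Nppb downstream of the gene start given above, which comes from the GENCODE annotation. Matches are in capitals and, where the motif lies on the other strand, read as its reverse complement.
Nppb, chr4:147985650-147985899: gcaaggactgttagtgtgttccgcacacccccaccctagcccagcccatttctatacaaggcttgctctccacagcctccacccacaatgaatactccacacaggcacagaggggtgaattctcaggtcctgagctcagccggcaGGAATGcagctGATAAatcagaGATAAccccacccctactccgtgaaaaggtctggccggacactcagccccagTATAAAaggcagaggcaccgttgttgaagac
Nppa, chr4:148000472-148000721: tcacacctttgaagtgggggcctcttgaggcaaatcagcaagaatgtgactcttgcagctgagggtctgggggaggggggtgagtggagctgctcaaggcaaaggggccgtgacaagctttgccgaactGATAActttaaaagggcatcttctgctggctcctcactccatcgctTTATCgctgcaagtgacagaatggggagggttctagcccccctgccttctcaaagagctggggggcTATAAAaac

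The Nppb window held GATAA with its first base 94 and 83 bases before the start, CATTCC on the other strand 105 bases before it and TATAAA 31 bases before it. The Nppa window held GATAA 121 bases before the start and on the other strand 75 bases before it, and TATAAA 9 bases before it, with no CATTCC. Neither window held TGACTCA. Of 32851 RefSeq mouse promoter windows of this length 22.6% held GATAA, 12.6% CATTCC, 4.46% TGACTCA and 12.4% TATAAA. Of the 9 members with an entry, all except Sln, 4 held GATAA, 5 CATTCC, 0 TGACTCA and 2 TATAAA. These counts are by gene and the shares above by window, and Myh7 and Tnnt2 had 2 windows each. A match is a run of letters and not a bound site.

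Nppb transcripts were close to absent from room air lungs and present in each hyperoxia-exposed lung of both genotypes. The 3 WT-RA lungs had 0, 0 and 0 counts, and the 3 WT-O2 lungs had 102, 81 and 145 counts, or 3.47, 2.77 and 4.92 CPM. The KO-RA lungs had 1, 1 and 0 counts, and the KO-O2 lungs had 111, 69 and 40 counts, or 3.79, 2.33 and 1.37 CPM. The lowest hyperoxia-exposed lung thus had 40 counts and the highest room air lung 1 count, so the exposures did not overlap, although 2 KO-RA lungs were not at 0. Against a floor of 3 counts per library, 0.103 CPM, the mean WT-O2 level was at least 36.0-fold higher than in WT-RA. The summed counts of 220 in KO-O2 and 2 in KO-RA gave a ratio of CPM of 108, with an exact 95% counting interval of 29.6 to 898. That interval covers counting error only, because it pools the reads of 3 mice per group and leaves out the spread between mice. Reads were also not counted as molecules. These values chose the gene and were not tested.

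**Figure D1:**
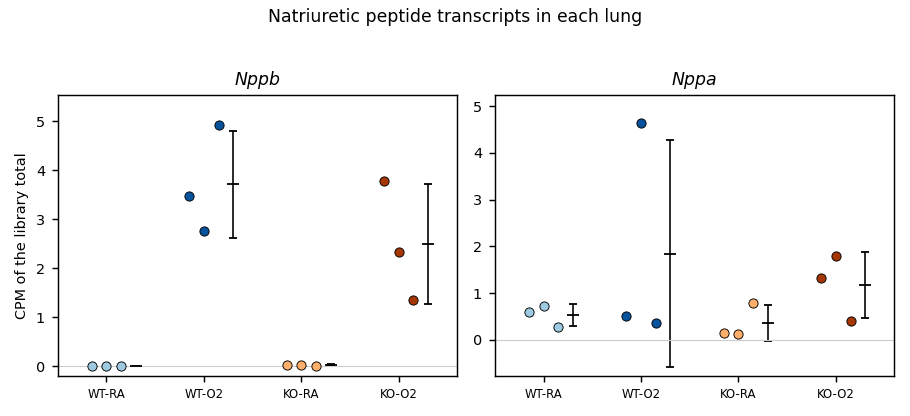
Level of Nppb (left) and Nppa (right) in CPM of the library total in each of 12 lungs, with the mean and SD of the 3 mice of a group beside the points. Nppb lay at 1.37 CPM or more in the 6 hyperoxia-exposed lungs and at 0.0347 CPM or less in the 6 room air lungs, while Nppa overlapped between exposures and reached 4.65 CPM in 1 WT-O2 lung.

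The summed level of the cardiomyocyte genes did not separate the exposures as Nppb did. The 8 cardiomyocyte genes together held 206.6 to 440.2 CPM in WT-RA, 209.9 to 246.3 in WT-O2, 182.7 to 195.9 in KO-RA and 154.3 to 243.7 in KO-O2. For each 1000 counts of these 8 genes there were 14.1, 13.1 and 23.4 Nppb counts in the WT-O2 lungs and 15.5, 11.6 and 8.85 in the KO-O2 lungs. In room air the same ratio was 0 in the WT-RA lungs and 0.177, 0.184 and 0 in the KO-RA lungs. The ratio uses the same Nppb counts, which chose the gene, so its separation by exposure follows from that choice and was not tested.

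Genotype made no detectable difference to Nppb in hyperoxia. The mean was 3.72 ± 1.10 CPM in WT-O2 and 2.50 ± 1.22 in KO-O2 (SD, n = 3 mice each), and the groups overlapped. The log2 fold change of KO-O2 against WT-O2 was -0.54 with a standard error (SE) of 0.36 and an adjusted p of 0.877 by the quasi-likelihood test of edgeR, adjusted over all tested genes after Benjamini and Hochberg. It ran from -0.99 without KO-O2 mouse 1, the lung with liver transcripts, to -0.24 without KO-O2 mouse 3. A difference of that order is within the spread between 3 mice.

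Nppa, which is transcribed next to Nppb, was low in each group and varied between mice. It was at 0.591, 0.722 and 0.274 CPM in WT-RA, at 0.510, 4.65 and 0.373 in WT-O2, at 0.139, 0.138 and 0.799 in KO-RA and at 1.33, 1.79 and 0.410 in KO-O2. A single WT-O2 lung, mouse 2, was far above the others, and the other WT-O2 lungs lay within the room air range. The log2 fold change in hyperoxia was 1.81 (SE 1.02, adjusted p = 0.183, edgeR) in WT and 1.77 (SE 1.10, adjusted p = 0.234, edgeR) in GSDMD-KO lungs, and neither passed. Without WT-O2 mouse 3 the WT value was 2.30 and passed (adjusted p = 0.084, edgeR). Without WT-O2 mouse 2 the WT value turned to -0.25. That lung had also the highest level of Acta1 (skeletal alpha-actin, 4.99 CPM), Gata4 (a cardiac and mesothelial transcription factor, 9.51 CPM) and, among the WT-O2 lungs, Tnni3 (23.4 CPM). Its 5 mesothelial marker genes summed to 369.6 CPM, where the other WT-O2 lungs had 160.8 and 298.3, and their part in the Nppa level was not tested.

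The cardiomyocyte genes were present in each of the 12 lungs. Per kilobase of transcript, using the longest protein-coding transcript of GENCODE, the WT-RA means were 58.4 ± 11.2 CPM for Actc1 (cardiac alpha-actin), 45.7 ± 20.3 for Myl7 (atrial regulatory light chain), 34.1 ± 8.35 for Myl4 (atrial essential light chain), 30.4 ± 12.5 for Tnnt2 (cardiac troponin T), 25.5 ± 9.92 for Tnni3 (cardiac troponin I) and 17.7 ± 9.19 for Myh6 (alpha myosin heavy chain), each SD over 3 mice. Neighbors in this order overlapped. Well below came Myh7 (beta myosin heavy chain) with 2.88 ± 0.228, Sln (sarcolipin, an atrial inhibitor of the calcium pump) with 2.81 ± 1.32 and Nppa with 0.611 ± 0.266 CPM per kilobase. In WT-O2 Nppb reached 4.76 ± 1.40 CPM per kilobase, and its lowest lung, at 3.55, was above the highest lung for Myh7 at 1.39 and for Sln at 1.65. Reads of Myh6 and Myh7, which are near-identical neighbors on chromosome 14, and of Actc1, which has close paralogs, may be shared between genes, so the split within these families is uncertain.

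Atrial markers were detected in each lung, and of 4 ventricular markers 2 were near 0 and 2 were not. Mybphl, an atrial myosin-binding protein, was at 1.79 to 5.81 CPM over the 12 lungs and the atrial potassium channel gene Kcna5 at 0.546 to 1.46 CPM. The ventricular light chain Myl2 had 2 to 8 counts and the ventricular transcription factor Irx4 at most 1 count per lung. The ventricular and slow muscle light chain Myl3 was at 2.14 to 8.49 CPM and Hey2, a transcription factor of ventricle and vessels, at 2.86 to 9.55 CPM. In hyperoxia Hey2 was called lower with a log2 fold change of -1.23 in each genotype. The sinus venosus gene Shox2 had 0 to 9 counts and the right atrial gene Bmp10 0 to 1. Vein sleeve and other atrial tissue cannot be told apart from these genes. The 21 skeletal muscle genes together came to between 11.5 and 16.9 CPM.

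**Figure D2:**
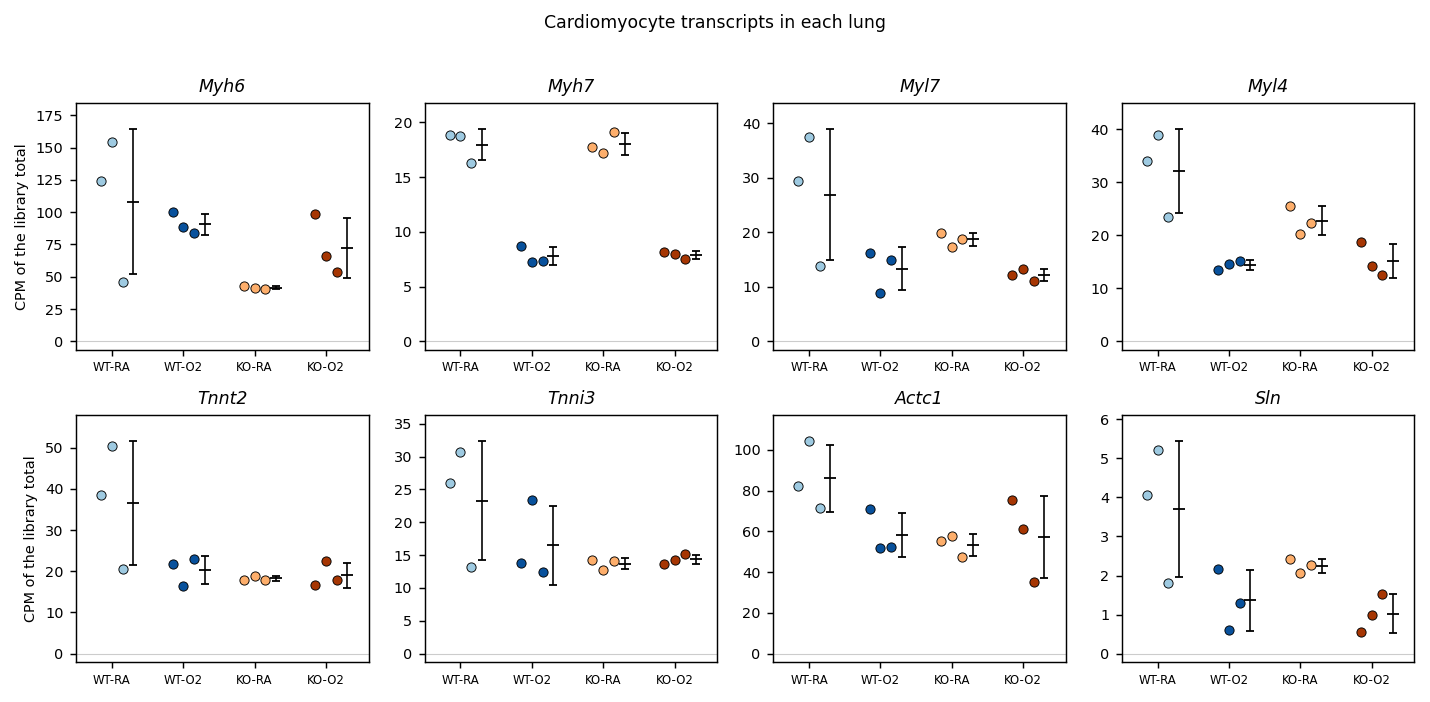
Level of each of the 8 cardiomyocyte genes in CPM of the library total in each of 12 lungs (points), with the mean and SD of the 3 mice of a group. Myh7 separated the exposures with no overlap, from 16.3 CPM or more in room air to 8.69 or less in hyperoxia, and Myl4 did so too, from 20.3 CPM or more to 18.8 or less. The other genes overlapped between the 6 room air and the 6 hyperoxia-exposed lungs.

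In WT lungs hyperoxia lowered several of these transcripts. Of the 9 genes other than Nppb, 4 were called lower and 0 higher, where called means an adjusted p below 0.1, an unadjusted p below 0.05 and at least a 2-fold difference. No gene was higher at an unadjusted p under 0.05 either, and DESeq2 called 3. Over all tested genes 6.57% were called lower and 5.04% higher, and the median log2 fold change was -0.83 over the 9 genes and -0.01 over all genes. The genes called were Myh7, Myl4, Sln and Myl7. Groups lay apart with no overlap, lower in hyperoxia, for 3 of the 9, and for 25.6% of all tested genes.

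Myh7 gave the clearest difference. It was at 18.8, 18.7 and 16.3 CPM in WT-RA and at 8.69, 7.29 and 7.37 CPM in WT-O2, with no overlap. Its log2 fold change was -1.20 (SE 0.11, adjusted p = 1.25e-06, edgeR). In KO-RA it was at 17.8, 17.2 and 19.1 CPM and in KO-O2 at 8.20, 7.96 and 7.52 CPM, a log2 fold change of -1.14 (SE 0.11, adjusted p = 2.2e-06, edgeR). Groups again did not overlap, and within an exposure the 2 genotypes lay in the same range.

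The atrial light chains were lower as well in WT. Myl4 was at 34.0, 38.9 and 23.5 CPM in WT-RA and at 13.4, 14.5 and 15.2 CPM in WT-O2, a log2 fold change of -1.15 (SE 0.18, adjusted p = 0.000193, edgeR). In KO-RA it was at 25.6, 20.3 and 22.4 CPM and in KO-O2 at 18.8, 14.2 and 12.6 CPM, where the log2 fold change of -0.54 (SE 0.18, adjusted p = 0.0293, edgeR) did not reach the fold threshold. In neither genotype did exposures overlap for Myl4. Myl7 was at 29.4, 37.5 and 13.9 CPM in WT-RA and at 16.2, 8.86 and 14.99 CPM in WT-O2, so here the groups overlapped. Its log2 fold change of -1.00 (SE 0.31, adjusted p = 0.0252, edgeR) sat on the fold threshold and was lost under RLE normalization, without the filter on low counts and in DESeq2. It was -0.70 without WT-RA mouse 2, -0.78 without WT-O2 mouse 2 and -0.93 without WT-RA mouse 1. In KO-RA Myl7 was at 19.9, 17.4 and 18.8 CPM and in KO-O2 at 12.3, 13.3 and 11.1 CPM, with a log2 fold change of -0.57 (SE 0.31, adjusted p = 0.182, edgeR).

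Sln was at 4.07, 5.22 and 1.81 CPM in WT-RA and at 2.18, 0.616 and 1.29 CPM in WT-O2, a log2 fold change of -1.43 (SE 0.44, adjusted p = 0.0202, edgeR). In KO-RA it was at 2.43, 2.07 and 2.26 CPM and in KO-O2 at 0.546, 0.980 and 1.54 CPM, a log2 fold change of -1.10 (SE 0.46, adjusted p = 0.0774, edgeR). The groups overlapped in WT and not in GSDMD-KO lungs. Sln counts were between 16 and 152 per lung, and the GSDMD-KO call was lost without KO-O2 mouse 1 (-0.81, adjusted p = 0.24, edgeR) and without KO-O2 mouse 2 or any 1 of the 3 KO-RA lungs (adjusted p of 0.13 to 0.16, edgeR).

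Troponin and actin genes did not reach the threshold. Tnnt2 was at 38.4, 50.5 and 20.6 CPM in WT-RA and at 21.7, 16.3 and 22.9 CPM in WT-O2, with a log2 fold change of -0.83 (SE 0.26, adjusted p = 0.0244, edgeR) that fell short of the fold required. Without WT-RA mouse 3 it passed, at -1.11. Tnni3 had a log2 fold change of -0.48 (SE 0.28, adjusted p = 0.199, edgeR) and Actc1 of -0.55 (SE 0.26, adjusted p = 0.113, edgeR) in WT. In GSDMD-KO lungs the log2 fold changes were 0.10 for Tnnt2, 0.11 for Tnni3 and 0.15 for Actc1, with SEs of 0.26, 0.29 and 0.26 and adjusted p values of 0.792, 0.788 and 0.682 in edgeR. Tnnt2 was within 16.6 to 22.5 CPM in all 6 GSDMD-KO lungs.

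Myh6, the main myosin of the adult mouse atrium, did not follow Myh7. It was at 124, 155 and 45.7 CPM in WT-RA, at 99.8, 88.7 and 83.7 in WT-O2, at 43.0, 41.2 and 40.8 in KO-RA and at 98.4, 66.0 and 53.3 in KO-O2. The WT groups overlapped, and the GSDMD-KO groups did not. The log2 fold change in hyperoxia was -0.24 (SE 0.39, adjusted p = 0.657, edgeR) in WT and 0.85 (SE 0.39, adjusted p = 0.122, edgeR) in GSDMD-KO lungs, and the WT value turned to 0.10 without WT-RA mouse 2. The GSDMD-KO value passed without KO-O2 mouse 3, at 1.04 (adjusted p = 0.089, edgeR). In GSDMD-KO lungs 2 of the 9 genes, Myh7 and Sln, were called lower and 0 higher. Of all tested genes 6.03% were called lower and 4.57% higher in that comparison. No member was higher there at an unadjusted p under 0.05, DESeq2 called 2, and the median log2 fold change was 0.10 over the 9 genes and -0.01 over all genes. Groups did not overlap for 4 genes that were lower and for 1, Myh6, that was higher in hyperoxia, against 28.7% and 22.8% of all tested genes.

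**Figure D3:**
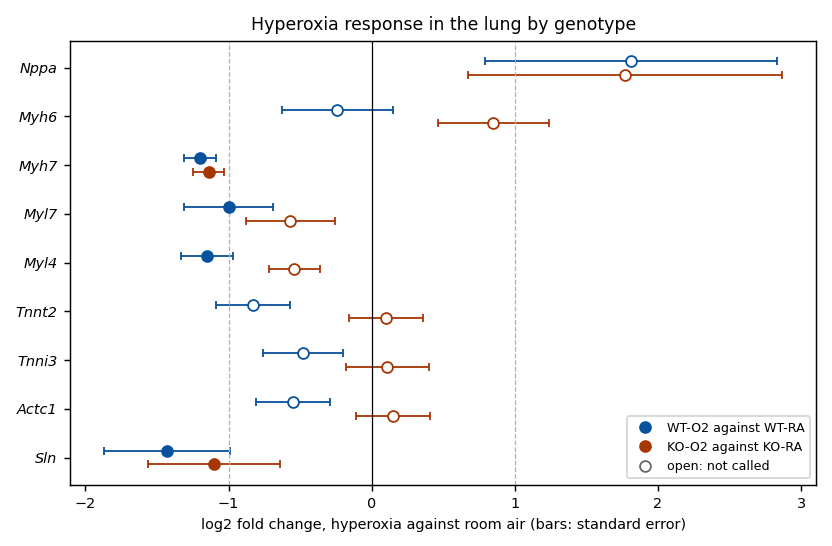
Log2 fold change of hyperoxia against room air, with its standard error, for the 9 genes other than Nppb in WT (blue) and GSDMD-KO lungs (brown); filled points were called and dashed lines mark the 2-fold threshold. Myh7 and Sln were filled in both genotypes, Myl7 and Myl4 in WT, and Nppa had the widest bars.

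The make-up of the cardiomyocyte counts thus differed between exposures, a pattern chosen after its values were seen and given with no test. For each count of Myl7 there were 4.22, 4.12 and 3.29 counts of Myh6 in WT-RA lungs and 6.18, 10.0 and 5.58 in WT-O2 lungs. The ratio was 2.16, 2.37 and 2.17 in KO-RA and 8.03, 4.96 and 4.81 in KO-O2. The exposures did not overlap in either genotype. Myh6 held 22.1% to 35.1% of the counts of the 8 genes in WT-RA and 39.9% to 42.0% in WT-O2, and 22.0% to 22.3% in KO-RA and 33.0% to 40.4% in KO-O2. The Pearson r of Nppb over the 12 lungs, on log2(CPM + 0.5), was -0.96 with Myh7, -0.79 with Myl4, -0.73 with Sln, -0.64 with Myl7, 0.32 with Myh6 and 0.47 with Nppa. These 12 points share the exposure groups and are a description.

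The hyperoxia responses of the 2 genotypes could not be told apart gene by gene. In the interaction test 0 of the 9 genes passed an adjusted p under 0.1 in edgeR, where 0.00595% of all tested genes did. DESeq2 also passed 0 of the 9, and 110 of all tested genes. An unadjusted p under 0.05 was found for 1130 of all tested genes and for 2 members, Myl4 (0.62, SE 0.25, adjusted p = 0.682, edgeR) and Tnnt2 (0.94, SE 0.37, adjusted p = 0.682, edgeR), on the log2 scale. The estimate was above 0 for 8 of the 9 genes, with a median of 0.60 against 0.00 over all tested genes. These estimates share the WT-RA lungs, which held the widest spread of the 4 groups.

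Between KO-RA and WT-RA lungs no member passed the test. Of the 10 genes 0 were called in edgeR, where 0.137% of all tested genes were. An unadjusted p under 0.05 was found for 5, as for 1762 of all 16819 tested genes. DESeq2 called 2, Myh6 and Tnnt2, and 71 of all 16819 tested genes. The estimate was below 0 for 9 genes, with a median log2 fold change of -0.63 against 0.00 over all genes. The gene above 0 was Nppb, at 0 or 1 count in each room air lung, too few for its test here to decide anything. Nppb passed the count filter only through the hyperoxia-exposed lungs. For 3 genes each KO-RA lung lay below each WT-RA lung, as for 6.8% of all tested genes. The log2 fold change was -1.38 (SE 0.40, adjusted p = 0.251, edgeR) for Myh6 and -1.01 (SE 0.26, adjusted p = 0.175, edgeR) for Tnnt2. Actc1, Tnni3 and Myl4 had log2 fold changes of -0.70, -0.78 and -0.51 with adjusted p values of 0.379, 0.365 and 0.305 in edgeR. Myh7 was level, at -0.01 (SE 0.11, adjusted p = 0.991, edgeR). The 8 cardiomyocyte genes summed to 357.2, 440.2 and 206.6 CPM in WT-RA and to 195.9, 187.3 and 182.7 CPM in KO-RA, so that each KO-RA lung was below each WT-RA lung, WT-RA mouse 3 only slightly above them.

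WT-RA mouse 2 had the highest level of the 12 lungs for 7 of the 8 cardiomyocyte genes and for 18 of 30 further cardiomyocyte genes. Without WT-RA mouse 3, the lowest of its group, 3 members were called lower in KO-RA, Myh6 (-1.75), Tnnt2 (-1.29) and Tnni3 (-1.06). Over all genes 71 of 17095 tested were called lower in that setting. Leaving out the lowest WT-RA lung raises the WT-RA mean of these members. None of the WT-RA lungs and 2 of 3 KO-RA lungs carried Y-linked transcripts. The KO-RA lung without them, mouse 1, summed to 195.9 CPM. With Y-linked expression as a covariate the log2 fold change was -1.30 for Myh6 and -1.11 for Tnnt2 (adjusted p = 0.64 and 0.45, edgeR). Sex and genotype largely went together in room air, and their parts cannot be told apart from these lungs. Under hyperoxia 0 of the 10 genes were called between KO-O2 and WT-O2 in edgeR, where 0.0238% of all tested genes were. For 0 of the 10 was the unadjusted p under 0.05. DESeq2 called 0 of the 10, and 31 of all tested genes. The median log2 fold change there was -0.14, against 0.00 over all genes.

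Among 30 further genes of the cardiomyocyte, such as Z-disc, calcium handling and mitochondrial genes, 4 were called lower and 0 higher in WT, and 3 lower and 1 higher in GSDMD-KO lungs. Of all tested genes 6.57% and 6.03% were called lower in WT and GSDMD-KO lungs and 5.04% and 4.57% higher. Tcap, the titin cap protein, gave -2.12 (SE 0.34, adjusted p = 0.000254, edgeR) in WT and -1.95 (SE 0.36, adjusted p = 0.00082, edgeR) in GSDMD-KO lungs. The mitochondrial creatine kinase Ckmt2 gave -1.62 and -1.11, the cytochrome oxidase subunit Cox8b -1.36 and -0.86, and the triadin gene Trdn -1.19 and 0.25, where Cox8b and Trdn were not called in GSDMD-KO lungs. Mybpc3 (1.13), cardiac myosin-binding protein C, was called higher in GSDMD-KO lungs. It was at 3.93 CPM in KO-O2 mouse 1, the lung with liver transcripts, and at 3.14 and 2.39 in the other KO-O2 lungs. The KO-RA lungs had 1.32 to 1.63 CPM, and the Mybpc3 value without KO-O2 mouse 1 is not given here. The GSDMD-KO call of Ckmt2 was lost without KO-O2 mouse 1 (-0.87), without KO-O2 mouse 2 (-0.94) and without KO-RA mouse 3 (-0.94), and the WT call of Trdn without WT-RA mouse 1 (-0.90). The list's median was -0.39 in WT and 0.14 in GSDMD-KO lungs, against -0.01 over all genes in each.

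Of 17 atrial and pulmonary vein genes 14 were tested, and 3 were called higher in each genotype, among them the potassium channel gene Kcnj5 and Gata4, where 5.04% of all tested genes were called higher in WT and 4.57% in GSDMD-KO lungs. Kcnj5 gave 1.36 in WT and 2.32 in GSDMD-KO lungs, and Gata4 2.20 and 1.58. Hcn4, a channel gene of the sinus node, was called lower in both genotypes, from 2.89 to 3.23 CPM in WT-RA to 0.616 to 0.918 in WT-O2, a log2 fold change of -1.94 (SE 0.25, adjusted p = 2.86e-05, edgeR), and of -2.22 (SE 0.25, adjusted p = 8.55e-06, edgeR) in GSDMD-KO lungs. Kcnj3 was called lower in WT with -1.60, a call lost without WT-RA mouse 1 (-1.28), and the GSDMD-KO call of Gata4 was lost without KO-O2 mouse 2 (1.38) and without KO-RA mouse 1 (1.47) or 2 (1.49). Several of these genes are expressed in lung cells other than cardiomyocytes, and the source of their RNA was not tested. Gja5, the connexin of atrium and arterial endothelium, had a lower level in KO-RA lungs against WT-RA lungs (-0.44, SE 0.08, adjusted p = 0.044, edgeR), short of the fold threshold.

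Of 15 genes known to respond to load or stress in heart muscle and elsewhere, 14 were tested and 6 in WT and 7 in GSDMD-KO lungs were called higher, 0 lower, where 5.04% and 4.57% of all tested genes were called higher. Timp1, an inhibitor of matrix proteases, gave 3.96 in WT and 3.44 in GSDMD-KO lungs on the log2 scale. Acta1 was at 0.0342 to 0.104 CPM in WT-RA and at 0.272, 4.99 and 0.509 CPM in WT-O2, a log2 fold change of 4.73 (SE 1.42, adjusted p = 0.0226, edgeR) that fell to 2.44 without WT-O2 mouse 2. Against the same shares of all genes, 3 of 8 smooth muscle genes were called higher in each genotype, and their summed level was 863 to 1403 CPM in WT-RA, 1633 to 1838 in WT-O2, 938.5 to 1029 in KO-RA and 961.1 to 1621 in KO-O2. Of 5 mesothelial genes 2 were called higher in each genotype, with sums of 104.6 to 209.4, 160.8 to 369.6, 149.5 to 210.2 and 248.1 to 459.6 CPM in the same order. Their part in these responses was not tested.

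**Figure D4:**
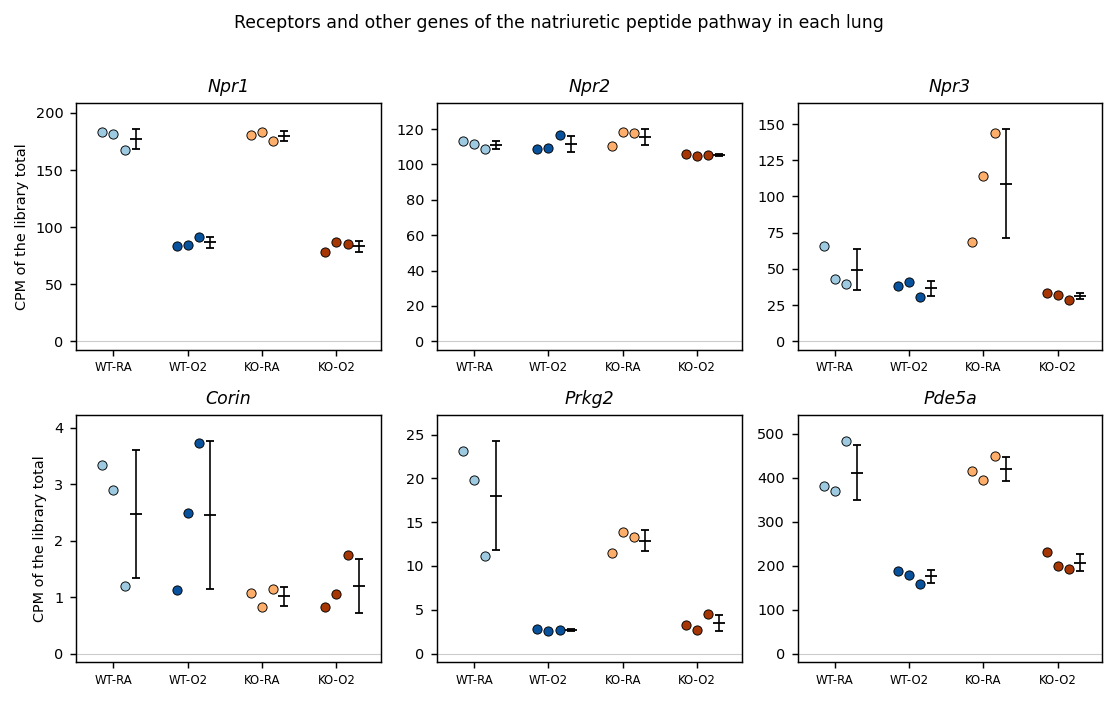
Level in CPM of the library total of the receptor genes Npr1, Npr2 and Npr3, the protease gene Corin, the kinase gene Prkg2 and the phosphodiesterase gene Pde5a in each of 12 lungs, with the mean and SD of the 3 mice of a group. Npr1, Prkg2 and Pde5a lay lower in each hyperoxia-exposed lung than in any room air lung, and Npr2 stayed between 104.9 and 118.2 CPM.

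Of 17 pathway genes 15 were tested, and 6 in WT and 5 in GSDMD-KO lungs were called lower and 0 higher, where 6.57% and 6.03% of all tested genes were called lower. Npr1, the receptor gene, was at 182.9, 181.5 and 167.3 CPM in WT-RA and at 83.5, 84.6 and 91.7 in WT-O2, a log2 fold change of -1.03 (SE 0.08, adjusted p = 1.25e-07, edgeR) that fell just under 2-fold, at -1.00, without WT-RA mouse 1 or WT-O2 mouse 1. In GSDMD-KO it was at 180.6, 183.4 and 175.0 CPM in room air and at 77.9, 87.2 and 84.8 CPM in hyperoxia, a log2 fold change of -1.07 (SE 0.08, adjusted p = 1.27e-07, edgeR). Npr2, the receptor for C-type natriuretic peptide, had log2 fold changes of 0.01 and -0.09 (SE 0.07 each, adjusted p = 0.899 and 0.299, edgeR).

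The clearance receptor Npr3 was at 66.1, 42.7 and 39.8 CPM in WT-RA, 38.2, 40.7 and 30.8 in WT-O2, 68.9, 114.1 and 143.5 in KO-RA and 33.4, 31.8 and 28.8 in KO-O2. Its log2 fold change was -1.75 (SE 0.27, adjusted p = 0.000587, edgeR) in GSDMD-KO and -0.43 (SE 0.27, adjusted p = 0.228, edgeR) in WT lungs. The difference between these responses was -1.32 (SE 0.38, adjusted p = 0.513, edgeR) and did not pass, and KO-RA against WT-RA gave 1.12 (SE 0.27, adjusted p = 0.159, edgeR).

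Downstream of the receptors, the cyclic GMP-dependent kinase gene Prkg2 gave -2.74 (SE 0.24, adjusted p = 1.02e-06, edgeR) in WT and -1.84 (SE 0.23, adjusted p = 3.3e-05, edgeR) in GSDMD-KO lungs. The other kinase gene of this kind, Prkg1, gave -0.47 and -0.50 (adjusted p = 0.0115 and 0.00845, edgeR), less than a 2-fold change. Of the phosphodiesterase genes, Pde3a gave -1.37 and -1.39 and Pde5a, the target of sildenafil, -1.22 and -0.97, the last short of the fold threshold. Pde2a gave -1.52 and -0.77 and was called in WT, and Pde9a gave -0.47 and -0.24, was called in neither and overlapped between exposures in GSDMD-KO lungs. Pde5a was at 381.5, 369.1 and 482.5 CPM in WT-RA and at 187.6, 179.7 and 159.1 CPM in WT-O2. Of the proteases that cut the peptides, Dpp4 gave -1.36 and -1.21 and was called in both genotypes, while Mme (neprilysin) gave -0.93 and -0.78 and Ide 0.44 and 0.43, with an adjusted p under 0.1 and less than a 2-fold change. Corin, which activates ANP at the surface of atrial cells, was at 0.819 to 3.73 CPM over the 12 lungs and gave 0.00 and 0.28 (adjusted p = 0.993 and 0.669, edgeR). Nppc and Ostn, the genes of C-type natriuretic peptide and of musclin, had at most 8 and 4 counts per lung.

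The genes whose levels over the 12 lungs were most like Nppb, by Pearson r of log2(CPM + 0.5), were Thbs1 (0.993), Lilr4b (0.992), Bean1 (0.991), Sp9 (0.991) and Polr1a (0.990). Thbs1, thrombospondin 1, was at 142 to 145 CPM in WT-RA and at 640 to 1060 CPM in WT-O2. Bean1 was at 0.377 to 0.928 CPM in WT-RA and at 29.0 to 52.9 in WT-O2. Most like the sum of the 8 cardiomyocyte genes were Olfr1380 (0.908), Duxf3 (0.902), Casp1 (0.898), Trdn (0.892) and Ldb3 (0.881), of which Trdn and Ldb3 are cardiomyocyte genes. All lungs share 2 exposures, and these values describe the 12 libraries.

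In the retina, which played no part in the choice, Nppb was detected in room air as well as after hyperoxia. It was at 0.192, 0.816 and 0.0967 CPM in WT-RA, 0.700, 0.532 and 0.805 in WT-O2, 0.102, 0.715 and 0.696 in KO-RA and 0.935, 0.875 and 0.524 in KO-O2. Exposures overlapped in both genotypes, and the log2 fold changes were 0.65 (SE 0.82, adjusted p = 0.751, edgeR) and 0.51 (SE 0.81, adjusted p = 0.784, edgeR). Nppa was at 1.64 to 4.59 CPM over the 12 retinas and did not differ detectably, with -0.31 in WT and 0.37 in GSDMD-KO (adjusted p = 0.705 and 0.588, edgeR).

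Of the 9 members tested in the retina, all but Sln, 1 was called higher and 0 lower in each genotype, and it was Tnnt2, where 1.77% of all tested genes were called higher in WT and 1.64% in GSDMD-KO retinas. Tnnt2 was at 0.925, 1.54 and 1.53 CPM in WT-RA and at 16.2, 21.6 and 24.9 CPM in WT-O2, with no overlap. Of all tested genes, 30.5% lay higher after hyperoxia in WT with no overlap. The log2 fold change of Tnnt2 was 3.74 (SE 0.56, adjusted p = 0.00743, edgeR). In KO-RA it was at 0.495, 1.14 and 1.80 CPM and in KO-O2 at 12.5, 12.2 and 3.27 CPM, again with no overlap. In GSDMD-KO 15% of all tested genes lay higher with no overlap. The log2 fold change of Tnnt2 there was 2.94 (SE 0.55, adjusted p = 0.0189, edgeR). Actc1 gave 0.69 and 0.46 (adjusted p = 0.431 and 0.589, edgeR). Myh6 gave 0.65 in WT and 2.60 (SE 0.85, adjusted p = 0.114, edgeR) in GSDMD-KO retinas, and DESeq2 called the latter. Y-linked transcripts marked 3 of 3 retinas in each room air group and 1 of 3 in each hyperoxia group, and the part of sex in these values was not tested.

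**Figure D5:**
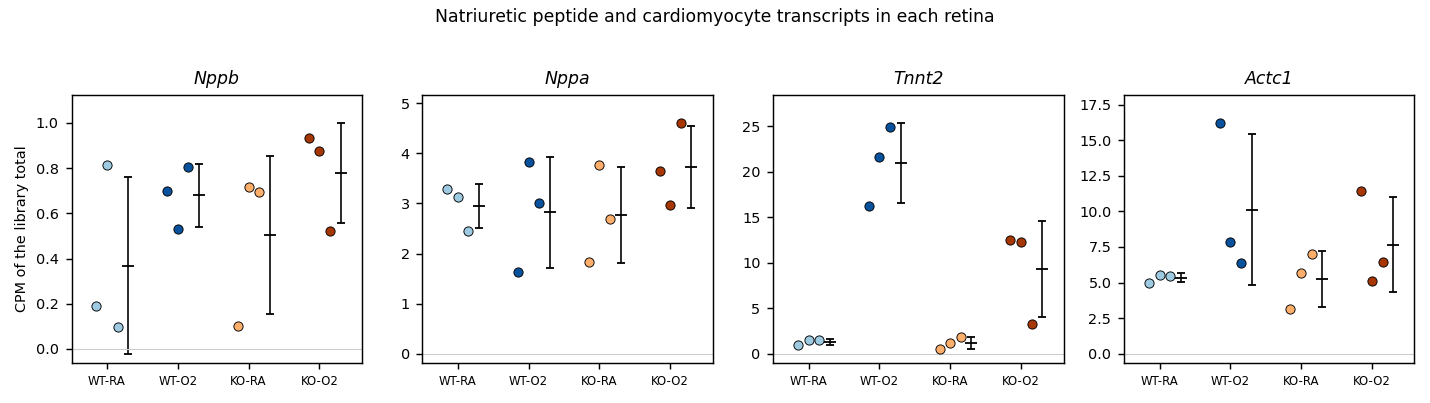
Level of Nppb, Nppa, Tnnt2 and Actc1 in CPM of the library total in each of 12 retinas, with the mean and SD of the 3 mice of a group. Tnnt2 rose from at most 1.80 CPM in room air to at least 3.27 CPM after hyperoxia, and Nppb and Nppa overlapped between exposures.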

How the data were processed

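RNA of 12 whole lungs and 12 whole retinas, each from a separate mouse, was sequenced. The authors checked reads with FastQC, quantified transcripts with kallisto, took gene sums through tximport, and deposited estimated counts with no scaling to depth. The build is given as mm10 in the submitters' notes and as GRCm39 in the study's methods, and the tables hold no coordinates. Whole values (tolerance 0.001) made up 44.9% of nonzero lung and 0.35% of nonzero retina values, so retina counts may have been rescaled, and tissues were not compared in level. Symbols came from a gene ID table and matched 35816 of 36109 lung and 35968 of 36595 retina genes, and genes without a symbol held at most 0.0904% and 0.788% of the counts. Columns were matched to mice by name.

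Counts were rounded and tested in R 4.3.3 with edgeR 4.0.16 (TMM normalization, filterByExpr by group, quasi-likelihood test with robust dispersion), with all 12 samples of a tissue in 1 fit and Benjamini-Hochberg adjustment over all 16819 lung or 19173 retina genes that passed the filter. Called means an adjusted p below 0.1, an unadjusted p below 0.05 and at least a 2-fold difference. These p values rest on 1 estimate of the spread between mice per gene, shared by the 4 groups of 3 mice and informed by other genes. Spreads could differ between groups, as for Myh6 in lungs with an SD of 56.2 CPM in WT-RA and 1.2 in KO-RA. SEs were taken from the fold change and its F statistic. The scripts were tested on simulated data. DESeq2 1.42.0 was an alternative, as were RLE normalization, no filter, no fold threshold, the 2 compared groups alone, Y-linked expression (summed CPM above 20) as a covariate and leaving out each mouse. Each member is named. From the other lists the genes named were those called, at most the 4 with the smallest p per list and comparison, and defining markers, together with receptors, kinases, proteases and phosphodiesterases of the natriuretic pathway named for their role. Some genes of these lists are not reported here by name. Members and lists were chosen with earlier results of these data known. Positions and lengths came from GENCODE M21 (GRCm38) and promoters from RefSeq.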

Additional observations from a re-analysis of the deposited data

How the results depend on the processing

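No paired analysis was possible because the labels name single mice and give the groups no shared replicate numbers. The count of members called lower in WT lungs was 4, and 3 under RLE normalization, without the filter and in DESeq2, and ran from 3 to 5 when 1 mouse was left out. In GSDMD-KO lungs the 2 calls became 1 without the filter on low counts and 1 with Y-linked expression as a covariate, and ran from 1 to 3 without 1 mouse, where Sln was the gene lost. For KO-RA against WT-RA 0 calls became 2 in DESeq2 and ran from 0 to 3, the 3 without WT-RA mouse 3, and for the interaction they ran from 0 to 1, the 1 without the same lung. In GSDMD-KO retinas 1 call became 2 in DESeq2 and ran from 1 to 2, the 2 without KO-RA mouse 2 or WT-O2 mouse 1. Leaving out 1 mouse moved the log2 fold change across 0 for Myh6 (-0.60 to 0.10) and Nppa (-0.25 to 2.30) in WT lungs, for Npr2 in WT lungs (-0.01 to 0.03, and -0.02 with the Y-linked covariate), for Tnnt2 (-0.05 to 0.18) and Actc1 (-0.10 to 0.42) in GSDMD-KO lungs and for Myh6 in WT retinas (-0.54 to 1.11). None of these was called with all mice, and the cause was not tested.

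Over all tested genes the calls of KO-O2 against WT-O2 were 4, but 31 in DESeq2, 8 with only the 2 groups and 2 with the Y-linked covariate, and 1 without KO-O2 mouse 1 to 23 without KO-O2 mouse 3. Those of KO-RA against WT-RA were 23, but 71 in DESeq2, 82 without a fold threshold, 10 with only the 2 groups, 0 with the Y-linked covariate, and 1 without KO-RA mouse 3 to 109 without WT-RA mouse 3. The interaction passed for 1 gene, but for 110 in DESeq2, 2 without the filter and 0 with the covariate, and for 0 to 45 without 1 mouse. Calls in retina were 391 in WT and 420 in GSDMD-KO, but 647 and 663 in DESeq2 and 196 to 504 and 151 to 439 without 1 mouse. Without the fold threshold they were 990 and 1500, in lungs 8268 instead of 1952 for WT and 7857 instead of 1783 for GSDMD-KO, and 7 for KO-O2 against WT-O2. The low counts of Nppb, Nppa and Sln limit their precision.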
